A study of Mus musculus with 15 samples.

Results

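Group 2 innate lymphoid cells (ILC2) of the lung that expressed an IL-10 reporter were compared with those that did not. The comparison rests on 6 of the 15 RNA-seq libraries of the study analysed here, which are 3 of reporter positive cells (ILC2_10) and 3 of reporter negative cells (ILC2_act). They were chosen by their labels alone, and lie in 1 table of 10 libraries whose other 4 hold reporter positive and negative splenic Treg cells. The mice of these 10 libraries were 10BiT Foxp3-GFP dual reporters of 6 to 14 weeks of age. In these mice a bacterial artificial chromosome that holds *Il10* carries the coding sequence of Thy-1.1, and an IRES-GFP cassette lies in the *Foxp3* locus. The reporter thus stands for activity of transgenic *Il10* sequences and not for secreted protein. Both groups had been given 500 ng IL-33 in each of 4 daily injections, so ILC2_act were stimulated cells as well. Lung cells were gated as CD45+, Thy-1.2+, lineage negative and ST2+ and then split by Thy-1.1, with a sort purity above 95%. Replicates are independent experiments, each a pool of cells from 5 mice and not 1 animal.

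ILC2 are tissue-resident lymphocytes without antigen receptors that answer epithelial alarm signals such as IL-33 and release type 2 cytokines, among them IL-5 and IL-13, together with growth factors such as amphiregulin. IL-10 is a cytokine that restrains inflammation. It acts through a receptor coupled to STAT3, one of whose target genes is *Socs3*, an inhibitor of cytokine signalling. TNF superfamily ligands and chemokines such as CCL1 are among the products with which activated lymphocytes recruit and stimulate other cells.

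Values were FPKM, which are fragments scaled by the length of the transcript and by the mapped reads in a library. The depth of a single library is unknown, but the steps between low values gave relative depths from 0.678 to 1.00 of the deepest library, and the groups overlapped in them. Between 11514 and 12153 genes lay above 1 FPKM in ILC2_10 and between 10666 and 10768 in ILC2_act. The 6 libraries were numbered 2, 4 and 8 for ILC2_10 and 1, 3 and 7 for ILC2_act, and values are given in that order. No value above 1 FPKM was shared by replicates in a way that would mark a library deposited again. The male-specific gene *Ddx3y* was at 15.3, 16.7 and 18.6 FPKM in ILC2_10 and 16.0, 18.3 and 19.9 FPKM in ILC2_act, so the libraries did not separate by sex.

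The first question was whether the sort separated cells by *Il10* itself. *Il10* was at 137, 155 and 113 FPKM in ILC2_10 and at 16.0, 14.6 and 8.91 FPKM in ILC2_act. All 3 reporter positive libraries lay above all 3 negative ones, and the log2 fold change was 3.39 ± 0.22 (SE, n = 3 per group, adjusted p = 2.11e-05). Here and below, fold changes are on the log2 scale of FPKM floored at 1, which understates changes of low genes, and tests are by limma with p-values adjusted over 11566 genes. A gene is called higher or lower where its adjusted p is under 0.05 and its change is 2-fold or more. Within the pairs of consecutively numbered libraries the difference lay between 3.09 and 3.66 on the log2 scale. *Il10* transcripts were present in ILC2_act too. *Thy1* reads can come from the endogenous gene and from the reporter alike. *Thy1* was at 36.0, 38.4 and 31.0 FPKM in ILC2_10 and at 34.4, 31.1 and 31.8 FPKM in ILC2_act, so its summed level did not separate the groups (log2 fold change 0.11 ± 0.11, adjusted p = 0.596).

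Beside *Il10*, 4 marker genes of this comparison went in both directions, *Socs3* on the high side and *Tnf*, *Il2* and *Ccl1* on the low side. *Socs3* was at 94.4, 178 and 130 FPKM in ILC2_10 and at 24.4, 27.2 and 18.7 FPKM in ILC2_act. Its lowest ILC2_10 library lay well above its highest ILC2_act library (log2 fold change 2.49 ± 0.23, adjusted p = 0.00011). *Tnf* encodes the founding member of its ligand family. *Tnf* was at 0.576, 1.14 and 3.15 FPKM in ILC2_10 and at 23.2, 39.9 and 53.5 FPKM in ILC2_act. In ILC2_10 library 2 it fell below the floor of 1 FPKM, and every ILC2_act library was above every ILC2_10 library (log2 fold change -4.58 ± 0.45, adjusted p = 0.000171). *Il2* encodes a growth factor of lymphocytes. *Il2* was at 0.940, 0.647 and 1.34 FPKM in ILC2_10 and at 13.99, 28.0 and 12.8 FPKM in ILC2_act. It was near the floor in ILC2_10 and readily measured in ILC2_act (log2 fold change -3.95 ± 0.30, adjusted p = 4.55e-05). *Ccl1* encodes the ligand of CCR8. *Ccl1* was at 21.7, 52.6 and 31.1 FPKM in ILC2_10 and at 358, 351 and 338 FPKM in ILC2_act. The ILC2_act libraries were nearly equal while ILC2_10 ranged more widely, and the groups were far apart (log2 fold change -3.41 ± 0.26, adjusted p = 4.99e-05).

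**Figure D1:**
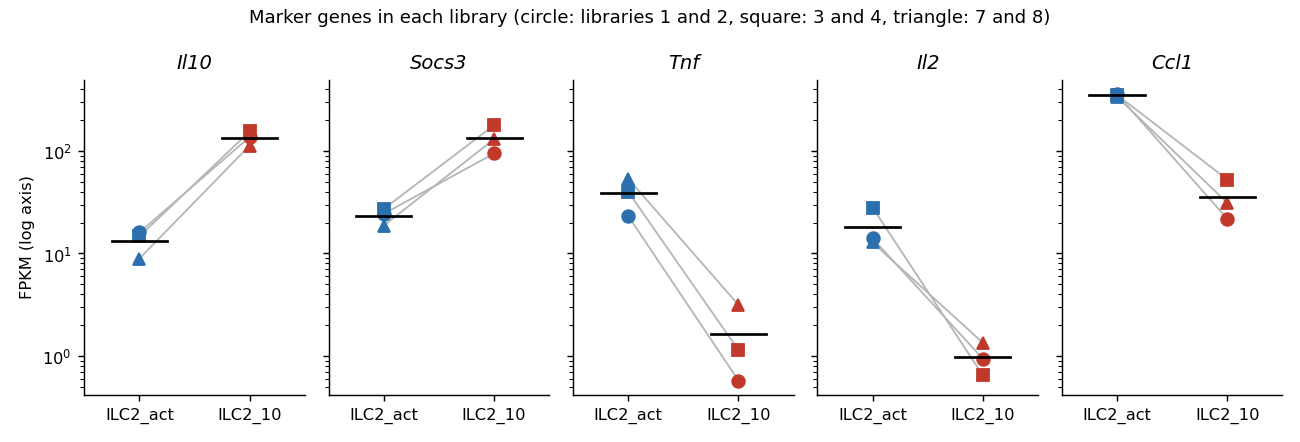
FPKM (log axis) of *Il10*, *Socs3*, *Tnf*, *Il2* and *Ccl1* in each of the 6 libraries, with the mean of each group as a bar and lines between consecutively numbered libraries. *Il10* and *Socs3* were higher and *Tnf*, *Il2* and *Ccl1* lower in every ILC2_10 library than in every ILC2_act library.

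The 250 bases before the start of 4 of these genes are shown because 3 are cytokine genes that were lower and 1 is a STAT target that was higher. *Il10* was looked up as well, but the set of promoters used had no entry for it. They are from RefSeq on GRCm38.p6, from 5′ to 3′ on the strand of the gene, at chr17:35202008-35202257 for *Tnf*, chr3:37125955-37126204 for *Il2*, chr11:82179813-82180062 for *Ccl1* and chr11:117969367-117969616 for *Socs3*, all on the minus strand. Capitals mark GGAAAA, the core bound by NFAT factors, searched on both strands, in the 3 lower genes. In *Socs3* they mark TTCNNNGAA, a palindrome bound by STAT factors.
Tnf: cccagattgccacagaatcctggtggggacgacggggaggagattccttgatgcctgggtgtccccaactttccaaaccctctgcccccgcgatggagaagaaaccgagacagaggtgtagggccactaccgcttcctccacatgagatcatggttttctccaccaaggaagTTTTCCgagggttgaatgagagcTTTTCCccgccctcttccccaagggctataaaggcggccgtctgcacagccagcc
Il2: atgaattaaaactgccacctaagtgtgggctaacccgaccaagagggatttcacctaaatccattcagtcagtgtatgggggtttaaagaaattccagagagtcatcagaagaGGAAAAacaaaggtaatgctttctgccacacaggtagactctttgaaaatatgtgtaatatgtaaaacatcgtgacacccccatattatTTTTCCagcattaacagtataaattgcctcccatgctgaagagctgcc
Ccl1: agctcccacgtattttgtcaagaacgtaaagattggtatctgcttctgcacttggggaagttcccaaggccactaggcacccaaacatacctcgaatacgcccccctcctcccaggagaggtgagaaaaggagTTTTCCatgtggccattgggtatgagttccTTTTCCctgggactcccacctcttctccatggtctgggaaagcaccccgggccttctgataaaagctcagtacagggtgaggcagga
Socs3: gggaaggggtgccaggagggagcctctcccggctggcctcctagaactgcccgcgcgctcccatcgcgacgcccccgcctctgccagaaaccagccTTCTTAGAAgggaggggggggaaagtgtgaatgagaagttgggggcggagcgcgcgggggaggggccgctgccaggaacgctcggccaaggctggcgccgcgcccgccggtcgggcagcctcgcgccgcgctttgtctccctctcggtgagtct
*Tnf*, *Il2* and *Ccl1* each held 2 places with the NFAT core, and none held the STAT palindrome. In *Tnf* they began 78 and 55 bases before the start, in *Il2* 137 and 48, and in *Ccl1* 117 and 87. *Socs3* held 1 STAT palindrome, 154 bases before its start, and no NFAT core. Among 32851 mouse promoters of the same length 20.4% held the NFAT core and 7.02% the STAT palindrome. A match describes these letters only and does not show binding.

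Across the transcriptome the difference ran mostly in 1 direction. Of 11566 genes tested, 1069 were called higher in ILC2_10 (9.24%) and 121 lower (1.05%), together 10.3%, beside a median log2 fold change of 0.03 over all genes. The groups did not overlap for any of the genes called higher, against 20.4% of all genes with every ILC2_10 library above every ILC2_act library, and for 120 of the genes called lower, against 12.3%. The exception was *Nr4a3*. Genes called higher had a median mean level of 4.14 FPKM and genes called lower of 7.15 FPKM. Of those higher, 409 were below 1 FPKM in all ILC2_act libraries. Of those lower, 10 were below 1 FPKM in all ILC2_10 libraries. A change of at least 8-fold was reached by 268 genes higher and 10 lower. Counts of calls in the gene lists below are to be read beside the 9.24% higher and 1.05% lower of all genes. With consecutively numbered libraries as a block 1137 were higher (9.83%) and 132 lower (1.14%), and these included all of the calls without it. A per-gene equal-variance test was also run on floored FPKM, not on the log2 scale, with adjustment over the same 11566 genes. By it 18 genes were higher and 4 lower, and limma had called each of them. The paper reports a t test with the same floor and kind of adjustment, but gives neither the scale of the values nor a gene filter. It lists far more genes as different, so these counts do not stand for its test. The reason for the gap was not tested.

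**Figure D2:**
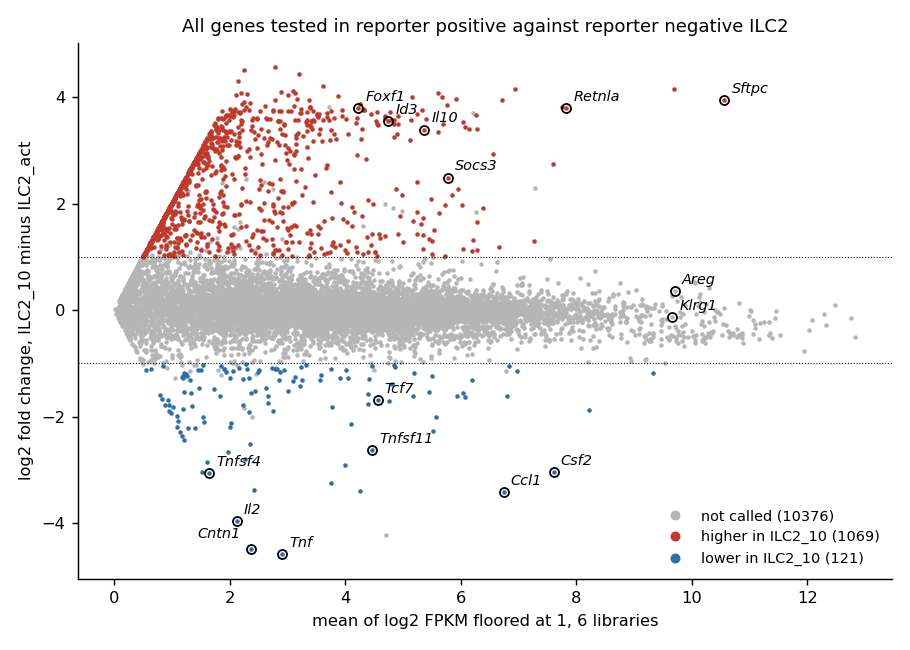
Log2 fold change of ILC2_10 minus ILC2_act against the mean of log2 FPKM floored at 1 over the 6 libraries, 1 point per gene tested, with dotted lines at a fold of 2. The 1069 genes called higher reach down to the floor, and the 121 called lower include *Tnf*, *Il2*, *Ccl1* and *Csf2*.

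Genes that define ILC2 were called at shares near that of all genes tested. These were 5.56% of surface receptors and 7.14% of lineage transcription factors, beside 10.3% of all genes. Of 18 surface receptors of ILC2 all were tested, and by limma none was higher and 1 was lower, with a median of -0.23 and 10 at an unadjusted p under 0.05, and their summed level ranged from 2919 to 3511 FPKM in ILC2_10 and from 3385 to 3810.0 FPKM in ILC2_act. *Il1rl1*, encoding the IL-33 receptor ST2 on which the cells were sorted, was at 111, 108 and 99.6 and 128, 109 and 128 FPKM (log2 fold change -0.20 ± 0.10, adjusted p = 0.24). *Klrg1*, a receptor of activated ILC2, was at 870.4, 796 and 669 and 1000.1, 804 and 761 FPKM (log2 fold change -0.13 ± 0.15, adjusted p = 0.641). For both the groups overlapped. The receptor that was lower was *Cd44*, which binds hyaluronan and marks activated lymphocytes. *Cd44* was at 76.8, 80.0 and 81.5 FPKM in ILC2_10 and at 144, 166 and 182 FPKM in ILC2_act. Its groups lay apart (log2 fold change -1.04 ± 0.10, adjusted p = 0.000189), but the fold fell just short of 2 without ILC2_act library 7 (log2 fold change -0.96) and after rescaling without genes of other cell types (-0.94).

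Of 14 transcription factors of the ILC lineage limma called none higher and 1 lower, with a median of -0.21 and 6 at an unadjusted p under 0.05, and without ILC2_10 library 2 it called 1 higher. *Gata3*, the factor on which ILC2 depend, was at 327, 408 and 271 FPKM in ILC2_10 and 322, 382 and 346 FPKM in ILC2_act and overlapped (log2 fold change -0.08 ± 0.15, adjusted p = 0.803). *Tcf7* encodes TCF-1, a factor of early ILC development. *Tcf7* was at 14.1, 10.7 and 15.1 FPKM in ILC2_10 and at 39.5, 45.5 and 42.7 FPKM in ILC2_act. It was the lineage factor called lower, with all 3 ILC2_10 libraries below all 3 ILC2_act ones (log2 fold change -1.69 ± 0.14, adjusted p = 7.7e-05). *Id2*, which every ILC lineage needs to restrain E proteins, was at 736, 768 and 604 and 1062, 965 and 1094 FPKM, which lay apart but by less than the fold required (log2 fold change -0.57 ± 0.13, adjusted p = 0.0167).

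Of 12 type 2 cytokine and growth factor genes 9 were tested, and by limma none was higher and 2 were lower (median -0.17), *Csf2* and *Lif*, while 5 had an unadjusted p under 0.05. *Il5*, which sustains eosinophils, was at 265, 571 and 298 FPKM in ILC2_10 and 368, 417 and 418 FPKM in ILC2_act and overlapped (log2 fold change -0.17 ± 0.25, adjusted p = 0.739). *Il13*, which drives mucus and airway responses, was at 69.2, 77.3 and 59.5 and 85.5, 87.1 and 87.8 FPKM (log2 fold change -0.35 ± 0.11, adjusted p = 0.0643). *Areg*, encoding the repair factor amphiregulin, was at 888, 1093 and 863 and 819, 700.1 and 701 FPKM (log2 fold change 0.35 ± 0.13, adjusted p = 0.124). The p-values of these 3 missed the threshold, which does not show that they were equal, and *Il13* was lower and *Areg* higher in every ILC2_10 library. *Csf2* encodes GM-CSF, a growth factor of myeloid cells. *Csf2* was at 44.8, 99.1 and 70.5 FPKM in ILC2_10 and at 465, 596 and 633 FPKM in ILC2_act. Its highest ILC2_10 library was far below its lowest ILC2_act library (log2 fold change -3.04 ± 0.26, adjusted p = 7.89e-05). *Lif*, a cytokine of the IL-6 family, was the other gene called lower, at 38.7, 53.3 and 49.5 and 90.5, 139 and 125 FPKM (log2 fold change -1.32 ± 0.18, adjusted p = 0.000966). *Il9* and *Il3* were listed at 0 in all ILC2_10 libraries and reached at most 0.184 and 0.570 FPKM in ILC2_act, so they were not tested.

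TNF superfamily ligands had the lowest median of the functional lists described here, at -1.85. Of 16 ligands 13 were tested, 7 were lower and 2 higher, and their summed level was 158 to 364 FPKM in ILC2_10 and 545 to 1103 FPKM in ILC2_act. The count of lower ligands was 5 without ILC2_act library 3 or 7 and 6 without ILC2_10 library 2 or 4. *Tnfsf4* encodes OX40 ligand, which costimulates T cells. *Tnfsf4* was at 0.331, 1.27 and 0.977 FPKM in ILC2_10 and at 7.43, 9.14 and 10.7 FPKM in ILC2_act, a clear separation (log2 fold change -3.05 ± 0.21, adjusted p = 2.74e-05). *Lta* encodes lymphotoxin alpha. *Lta* was at 1.14, 2.00 and 2.75 FPKM in ILC2_10 and at 9.89, 15.8 and 13.01 FPKM in ILC2_act, again without overlap (log2 fold change -2.78 ± 0.32, adjusted p = 0.000408). *Tnfsf11* encodes RANK ligand. *Tnfsf11* was at 7.85, 10.4 and 8.52 FPKM in ILC2_10 and at 49.8, 51.2 and 64.1 FPKM in ILC2_act, and the spread within each group was small beside the difference (log2 fold change -2.62 ± 0.15, adjusted p = 1.19e-05). *Ltb*, encoding the partner of lymphotoxin alpha, varied more. *Ltb* was at 80.0, 258 and 186 FPKM in ILC2_10 and at 364, 848 and 599.7 FPKM in ILC2_act. The groups did not overlap and within each pair the negative library was the higher one (log2 fold change -1.86 ± 0.43, adjusted p = 0.0179).

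The other ligands were weaker or went the opposite way. *Tnfsf8*, encoding CD30 ligand, was at 0.0863, 0.518 and 0.863 FPKM in ILC2_10 and 2.33, 7.21 and 7.98 FPKM in ILC2_act (log2 fold change -2.36 ± 0.43, adjusted p = 0.0054). *Cd70*, the ligand of CD27, was at 0.638, 0.547 and 1.76 and 2.13, 7.58 and 5.09 FPKM (log2 fold change -1.85 ± 0.45, adjusted p = 0.023). Both were low in abundance and lay apart. The ligands called higher were *Tnfsf13b*, encoding the B cell factor BAFF (log2 fold change 1.41 ± 0.27, adjusted p = 0.00779), and *Tnfsf12*, encoding TWEAK (log2 fold change 1.15 ± 0.22, adjusted p = 0.00664), which stayed below 5 FPKM in every library. *Tnfsf9*, encoding 4-1BB ligand, was at 25.5, 37.0 and 23.6 and 36.0, 67.7 and 45.1 FPKM and overlapped (log2 fold change -0.77 ± 0.24, adjusted p = 0.0675). Of 14 genes of IL-2 signalling, *Il2* and *Bcl2* were the only ones called, both lower, and *Il2ra*, encoding the high-affinity receptor chain, overlapped at 42.9, 49.2 and 35.9 and 47.2, 45.7 and 42.3 FPKM (log2 fold change -0.09 ± 0.12, adjusted p = 0.718). *Bcl2* encodes a survival protein. *Bcl2* was at 5.31, 9.72 and 8.33 FPKM in ILC2_10 and at 14.9, 20.7 and 21.4 FPKM in ILC2_act, with no overlap (log2 fold change -1.31 ± 0.24, adjusted p = 0.00548). Of 17 genes of the BCL2 family 4 were lower, the others being *Bcl2a1d*, *Bcl2a1b* and *Bcl2a1a*, near-identical copies among which reads can be split, so their separate levels are uncertain.

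Of 24 chemokines 18 were tested, and *Ccl1* was the only one called lower beside 8 higher (median 1.45). With single libraries left out the count higher ranged from 6, without ILC2_act library 3 or 7, to 9, without ILC2_10 library 2 or 4. *Ccl6*, encoding a chemokine of myeloid cells, was at 30.5, 47.7 and 98.2 FPKM in ILC2_10 and 2.54, 2.30 and 3.93 FPKM in ILC2_act (log2 fold change 4.20 ± 0.39, adjusted p = 0.000122). *Cxcl15*, encoding lungkine of lung epithelium, was at 40.3, 26.4 and 62.5 and 2.83, 2.90 and 4.05 FPKM (log2 fold change 3.66 ± 0.29, adjusted p = 5.7e-05). *Cxcl12*, made by stromal and endothelial cells, was at 5.88, 9.74 and 13.7 and 0.610, 0.791 and 0.771 FPKM (log2 fold change 3.21 ± 0.29, adjusted p = 0.000113). None of these 3 overlapped, and each is also known from other cells of the lung. *Ccl5* illustrates variation between pairs. *Ccl5* was at 33.1, 128 and 95.6 FPKM in ILC2_10 and at 104, 208 and 205 FPKM in ILC2_act, which overlapped and missed the threshold (log2 fold change -1.15 ± 0.47, adjusted p = 0.154). Within each pair the positive library was the lower one, and with the pairs as a block *Ccl5* was called lower (adjusted p = 0.000691). The block also added 2 chemokines on the high side, which made 10 higher and 2 lower.

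Of 12 genes of IL-10 and STAT3 signalling 10 were tested and 3 were higher, *Il10*, *Socs3* and *Il6st*, none was lower, and 5 had an unadjusted p under 0.05 (median 0.03). *Il6st* encodes gp130, the shared receptor chain of IL-6 family cytokines. *Il6st* was at 22.5, 26.4 and 33.0 FPKM in ILC2_10 and at 3.89, 5.44 and 4.71 FPKM in ILC2_act. Each ILC2_10 library was several-fold above each ILC2_act library (log2 fold change 2.54 ± 0.18, adjusted p = 3.39e-05). *Il10ra*, encoding the ligand-binding receptor chain, overlapped at 43.3, 67.0 and 51.4 and 65.5, 82.2 and 83.4 FPKM (log2 fold change -0.53 ± 0.17, adjusted p = 0.0661), and *Stat3* overlapped at 69.3, 80.0 and 64.1 and 71.3, 70.8 and 67.8 FPKM (log2 fold change 0.02 ± 0.10, adjusted p = 0.935).

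Factors known to act on *Il10* in T cells or macrophages gave 2 higher (8.7%) and 1 lower (4.35%) of 23 tested, with a median of -0.11. Of all genes 9.24% were higher and 1.05% lower, so the count of these factors is not a result about them. *Maf* was at 12.4, 12.5 and 13.3 FPKM in ILC2_10 and 13.5, 13.9 and 16.5 FPKM in ILC2_act, slightly lower in each and not called (log2 fold change -0.20 ± 0.12, adjusted p = 0.355). *Prdm1*, encoding Blimp-1, overlapped at 8.33, 10.4 and 9.81 and 8.79, 9.01 and 8.61 FPKM (log2 fold change 0.11 ± 0.14, adjusted p = 0.686). *Ahr*, a sensor of small aromatic ligands, lay higher in every ILC2_10 library, at 22.6, 29.5 and 27.7 and 16.2, 14.3 and 16.5 FPKM, below the fold required (log2 fold change 0.76 ± 0.13, adjusted p = 0.00384). *Irf4*, a factor induced by antigen receptor and related signals, was the one called lower. *Irf4* was at 8.08, 10.7 and 10.6 FPKM in ILC2_10 and at 17.8, 25.7 and 27.9 FPKM in ILC2_act, without overlap (log2 fold change -1.27 ± 0.19, adjusted p = 0.00192). The factors called higher were *Jun* (log2 fold change 1.30 ± 0.25, adjusted p = 0.00668) and *Irf8* (log2 fold change 1.18 ± 0.24, adjusted p = 0.0105). *Jun* lost its call without ILC2_10 library 8 (adjusted p = 0.0520), and *Irf8* lost it without ILC2_10 library 8 (log2 fold change 0.96) and without ILC2_act library 7 (adjusted p = 0.0511), as well as within the libraries that share the tag 22 in their names, with quantile normalization and with a pseudocount of 1 in place of the floor.

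Of 21 transcription factors of the ID, KLF and forkhead families tested, limma called 7 higher and none lower, with a median of 0.80 and 12 at an unadjusted p under 0.05. The count higher was 5 without ILC2_10 library 4 or 8 or ILC2_act library 1 or 7, and 9 without ILC2_10 library 2. *Id2*, described above, is a member and lay lower in ILC2_10. *Foxf1* encodes a forkhead factor known from lung mesenchyme and endothelium. *Foxf1* was at 53.5, 78.0 and 79.8 FPKM in ILC2_10 and at 4.27, 5.53 and 5.34 FPKM in ILC2_act, and the spread was small in both groups (log2 fold change 3.79 ± 0.18, adjusted p = 5.77e-06). *Id3* encodes an inhibitor of E proteins. *Id3* was at 52.3, 121 and 123 FPKM in ILC2_10 and at 5.51, 10.6 and 8.27 FPKM in ILC2_act, with every positive library above every negative one (log2 fold change 3.55 ± 0.35, adjusted p = 0.000169). *Klf2* encodes a factor of lymphocyte quiescence and of endothelium. *Klf2* was at 151, 161 and 177 FPKM in ILC2_10 and at 55.0, 36.1 and 39.9 FPKM in ILC2_act and did not overlap (log2 fold change 1.92 ± 0.15, adjusted p = 5.78e-05). *Id1* (log2 fold change 2.82 ± 0.39, adjusted p = 0.00117) and the E protein gene *Tcf4* (log2 fold change 2.06 ± 0.25, adjusted p = 0.000493) were higher too.

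Of 27 immediate early genes 5 were higher and 1 lower, with a median of 0.27 and 15 at an unadjusted p under 0.05. Without ILC2_act library 3 the counts were 8 higher and 0 lower, and *Nr4a3*, the gene called lower, also lost its call without ILC2_10 library 2 or 4 or ILC2_act library 7. *Fos* was at 491, 534 and 494 FPKM in ILC2_10 and 490, 665 and 606 FPKM in ILC2_act, and *Nr4a1* at 1235, 1849 and 1216 and 1291, 1727 and 1440.1 FPKM, with overlap for both (log2 fold change -0.20 ± 0.13, adjusted p = 0.38 and log2 fold change -0.07 ± 0.20, adjusted p = 0.87, respectively). *Atf3*, a stress-induced factor that dampens cytokine genes in macrophages, was one that was higher. *Atf3* was at 81.3, 132 and 108 FPKM in ILC2_10 and at 21.5, 40.4 and 22.5 FPKM in ILC2_act, with no overlap (log2 fold change 1.97 ± 0.26, adjusted p = 0.000816). *Ier3* and *Cyr61* were the most changed of the list. *Ier3* was at 169, 283 and 229.9 FPKM in ILC2_10 and at 19.2, 27.5 and 13.5 FPKM in ILC2_act (log2 fold change 3.53 ± 0.26, adjusted p = 4.05e-05), and *Cyr61*, encoding a matrix protein, was at 28.7, 50.4 and 80.1 and 2.84, 4.86 and 4.71 FPKM (log2 fold change 3.60 ± 0.35, adjusted p = 0.000177). Of 11 heat shock genes, which respond to handling stress, 3 were higher, *Hspa1a*, *Hspa1b* and *Hspb1*, and none lower (median 0.12). None of 23 NF-kB genes was called by limma in either direction or by the equal-variance test, and 6 had an unadjusted p under 0.05.

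Genes tied to alternative activation of macrophages stood well above the median of all genes. Of 15 such genes 11 were tested, 8 were higher and 1 lower, with a median of 3.78. *Retnla* encodes the secreted protein RELM alpha. *Retnla* was at 924, 524 and 1248 FPKM in ILC2_10 and at 72.4, 38.0 and 84.1 FPKM in ILC2_act. The lowest ILC2_10 library was several-fold above the highest ILC2_act library (log2 fold change 3.78 ± 0.36, adjusted p = 0.000138). The chitinase-like genes *Chil1* (log2 fold change 3.99 ± 0.17, adjusted p = 3.83e-06), *Chil3* (log2 fold change 4.15 ± 0.37, adjusted p = 0.000108) and *Chil4* (log2 fold change 4.43 ± 0.38, adjusted p = 8.04e-05) and the chitinase gene *Chia1* (log2 fold change 3.96 ± 0.14, adjusted p = 1.91e-06) had fold changes of like size. The gene called lower was *Pdcd1lg2*, encoding PD-L2 (log2 fold change -1.12 ± 0.21, adjusted p = 0.00613), which fell short of the fold with a pseudocount of 1 in place of the floor (-0.82) and lost its call without a filter on low values (adjusted p = 0.0896). *Arg1*, encoding arginase of activated ILC2 and macrophages, was at 468, 469.9 and 360.1 FPKM in ILC2_10 and 863, 753 and 812 FPKM in ILC2_act, lower in every positive library but short of the fold required (log2 fold change -0.91 ± 0.13, adjusted p = 0.00156). *Chil1* is also a marker of alveolar type 2 epithelium in the list used here, and *Chil3*, *Ear1*, *Ear2* and *Mrc1* are also on the list of macrophages. *Retnlg*, called higher as well, is also on the list of neutrophils.

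Receptors and ligands of coinhibition gave 2 higher (13.3%) and 1 lower (6.67%) of 15 tested (median 0.08), beside 9.24 and 1.05% of all genes. *Entpd1* encodes CD39, which breaks down extracellular ATP. *Entpd1* was at 6.86, 8.08 and 11.7 FPKM in ILC2_10 and at 0.501, 0.375 and 1.14 FPKM in ILC2_act, without overlap (log2 fold change 3.05 ± 0.23, adjusted p = 4.28e-05). *Cd244* was the other one higher (log2 fold change 1.38 ± 0.28, adjusted p = 0.00925), a call that quantile normalization ended (adjusted p = 0.106). *Ctla4* and *Tigit* overlapped, at 207, 124 and 157 against 144, 92.2 and 104 FPKM (log2 fold change 0.52 ± 0.21, adjusted p = 0.151) and 59.2, 35.9 and 48.1 against 39.2, 26.2 and 27.6 FPKM (log2 fold change 0.62 ± 0.21, adjusted p = 0.0842). Within each pair both were higher in the positive library, and neither reached a fold of 2 with the pairs as a block. *Foxp3*, the defining factor of Treg cells, was at 0.0955 FPKM or less in all 6 libraries. Of 12 Treg identity genes tested, *Lrrc32* was higher (log2 fold change 2.48 ± 0.28, adjusted p = 0.000396) and *Tnfrsf4*, encoding OX40 (log2 fold change -1.52 ± 0.23, adjusted p = 0.0018), and *Ebi3* (log2 fold change -1.18 ± 0.21, adjusted p = 0.0054) were lower. *Ebi3* fell short of the fold without ILC2_10 library 2 (log2 fold change -0.92).

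**Figure D3:**
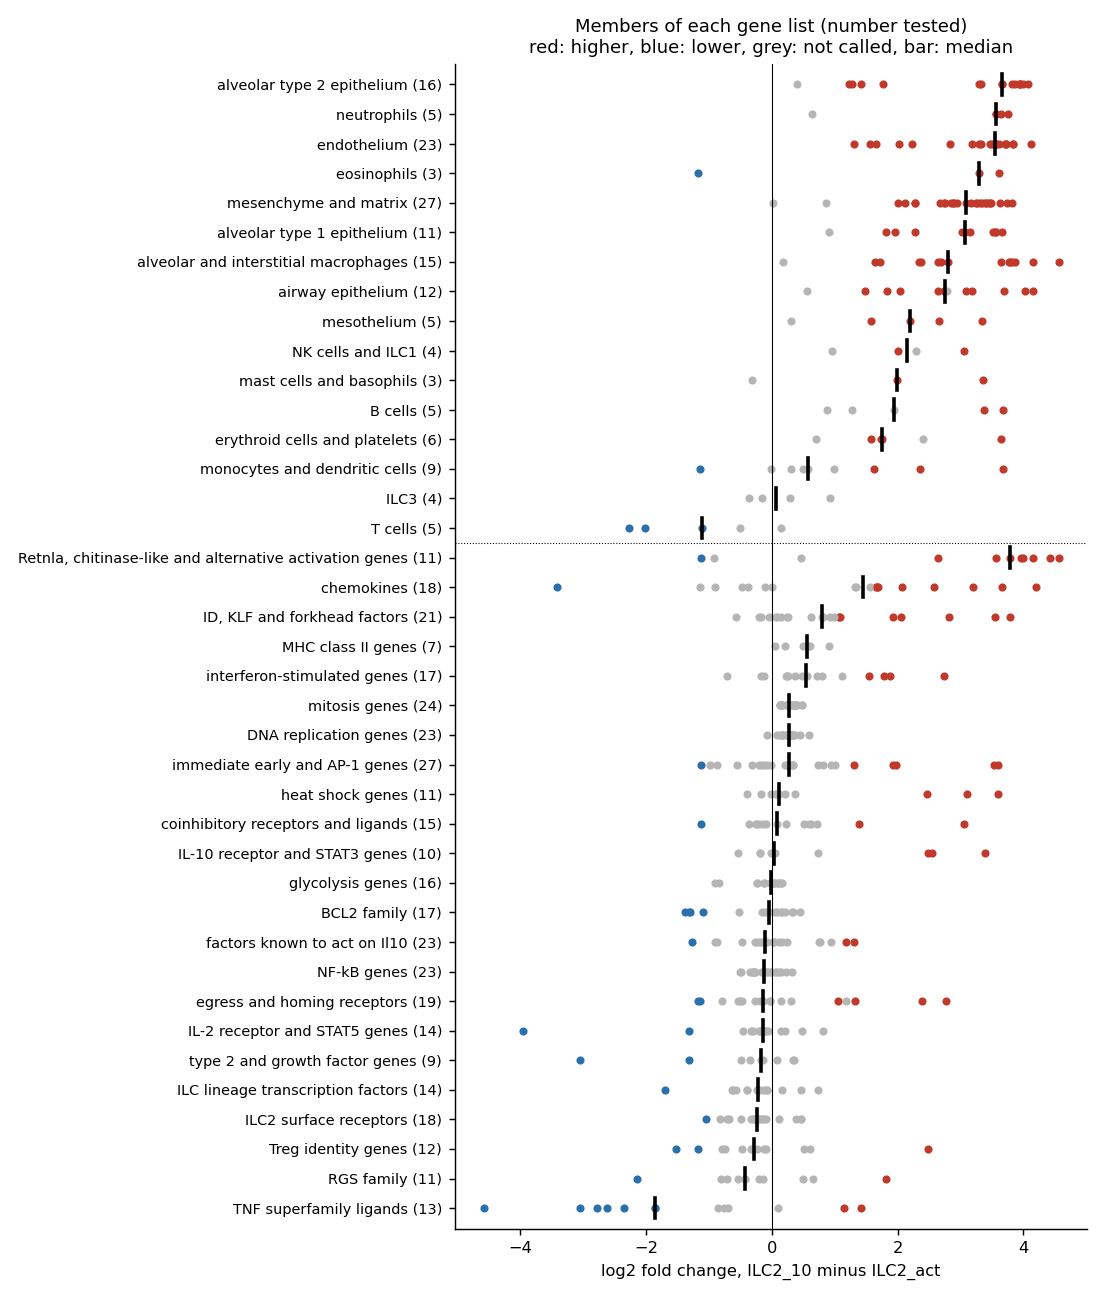
Log2 fold change of ILC2_10 minus ILC2_act for each tested member of the gene lists, 1 point per gene, with the list median as a bar and lists of other cell types above the dotted line. TNF superfamily ligands had a median of -1.85, whereas the lists of alveolar type 2 epithelium and of endothelium had medians of 3.66 and 3.54.

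The genes of largest decrease outside these lists included *Cntn1*, encoding the adhesion protein contactin 1. *Cntn1* was at 1.01, 1.18 and 1.11 FPKM in ILC2_10 and at 19.3, 27.8 and 27.0 FPKM in ILC2_act, near the floor in all positive libraries and of even level in the negative ones (log2 fold change -4.47 ± 0.19, adjusted p = 3.54e-06). *Rln3* encodes the peptide relaxin 3. *Rln3* was at 4.70, 8.17 and 5.34 FPKM in ILC2_10 and at 59.8, 77.2 and 51.6 FPKM in ILC2_act, with no overlap (log2 fold change -3.39 ± 0.22, adjusted p = 2.37e-05). *Tff1*, encoding a trefoil peptide of mucosal surfaces, was at 6.55, 6.97 and 4.38 and 42.7, 34.1 and 56.8 FPKM (log2 fold change -2.90 ± 0.23, adjusted p = 5.21e-05). *Sit1*, encoding an adaptor of T cell receptor signalling, was below 1 FPKM in all positive libraries and at 8.05, 9.20 and 7.38 FPKM in the negative ones (log2 fold change -3.03 ± 0.18, adjusted p = 1.53e-05). *Rgs18* encodes a regulator of G protein signalling. *Rgs18* was at 4.85, 12.6 and 8.85 FPKM in ILC2_10 and at 24.4, 40.4 and 46.4 FPKM in ILC2_act, lower in each positive library than in any negative one (log2 fold change -2.14 ± 0.35, adjusted p = 0.00304).

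Some defining markers of T cells were lower in ILC2_10 as well. Of 12 T cell genes 5 were tested, 3 were lower and none higher, and their summed level was 91.8 to 98.2 FPKM in ILC2_10 and 179 to 239 FPKM in ILC2_act. *Cd3g*, encoding the CD3 gamma chain, was the most abundant of those lower. *Cd3g* was at 21.2, 19.9 and 21.5 FPKM in ILC2_10 and at 85.2, 97.4 and 121 FPKM in ILC2_act, with a narrow range in ILC2_10 (log2 fold change -2.26 ± 0.13, adjusted p = 1.45e-05). *Cd3e* was at 1.18, 0.921 and 2.53 and 4.35, 6.82 and 6.62 FPKM (log2 fold change -2.01 ± 0.36, adjusted p = 0.00481), and *Cd3d* overlapped near 1 FPKM. The call of *Cd3e* was lost within the libraries that share the tag 22 (adjusted p = 0.086) and without a filter on low values (adjusted p = 0.116). *Cd247* was called lower (log2 fold change -1.11 ± 0.30, adjusted p = 0.0365) but lost the call without ILC2_10 library 2 (adjusted p = 0.103) or 4 (adjusted p = 0.0835) and without ILC2_act library 3 (adjusted p = 0.115) or 7 (adjusted p = 0.144). *Cd4* was below 1 FPKM in all 6 libraries. Cells that stain for CD3ε, CD4, CD8α or γδTCR were gated out in the sort. Whether RNA of T cells had a part in the lower genes was not tested.

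Genes of other lung cells were higher in ILC2_10 by amounts close to those of the genes above. Of 201 genes on 16 lists of other cell types 152 were tested, 119 were higher and 5 lower. Without them 950 genes were higher and 116 lower, a count chosen after the data were seen. The share of all FPKM held by these lists was 2.59, 3.22 and 4.88% in ILC2_10 and 0.532, 0.487 and 0.610% in ILC2_act. In such bulk libraries more cells of a type and more RNA per cell cannot be told apart. ILC2_10 library 8 held the largest share, and its *Il10* level was the lowest of the 3. The order over 3 libraries cannot place the source of *Il10* RNA, which was not tested.

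Among epithelial lists 15 of 16 genes of alveolar type 2 cells were higher, 10 of 11 of alveolar type 1 cells and 10 of 12 tested of the airway, and none was lower. *Sftpc* encodes surfactant protein C, made by alveolar type 2 cells. *Sftpc* was at 4689.8, 5816 and 7655 FPKM in ILC2_10 and at 354, 364 and 447 FPKM in ILC2_act, without overlap (log2 fold change 3.94 ± 0.19, adjusted p = 7.02e-06). The summed level of the type 2 list was 6335 to 10539 FPKM in ILC2_10 and 525 to 658.0 FPKM in ILC2_act, and no member was at 0 in either group. *Scgb1a1*, encoding the secretoglobin of club cells, was at 1775, 3808 and 6248 and 152, 105 and 474 FPKM (log2 fold change 4.15 ± 0.58, adjusted p = 0.00124). Its list summed to 1996 to 6558 FPKM against 149 to 526 FPKM. *Ager*, a marker of alveolar type 1 cells, was at 177, 266 and 428 and 15.9, 21.9 and 28.7 FPKM (log2 fold change 3.66 ± 0.31, adjusted p = 8.04e-05), in a list that summed to 413 to 840 FPKM against 46.2 to 66.4 FPKM.

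All 23 tested genes of endothelium were higher, with a median of 3.54 and sums of 1044 to 1555 FPKM in ILC2_10 and 154 to 179 FPKM in ILC2_act. *Cldn5* encodes a tight junction protein of endothelium. *Cldn5* was at 98.7, 80.2 and 125 FPKM in ILC2_10 and at 7.75, 7.19 and 7.85 FPKM in ILC2_act, nearly level within ILC2_act (log2 fold change 3.72 ± 0.16, adjusted p = 3.54e-06). Of 27 genes of mesenchyme and matrix tested 25 were higher (median 3.09, sums of 1122 to 2487 against 201 to 270 FPKM). Beside these medians *Foxf1*, *Id3* and *Cxcl12* had log2 fold changes of 3.79, 3.55 and 3.21. Whether RNA of endothelial, mesenchymal or epithelial cells had a part in the higher genes was not tested.

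Of 15 tested macrophage genes 14 were higher (median 2.80), with sums of 1376 to 2963 FPKM in ILC2_10 and 421 to 489 FPKM in ILC2_act. *Lyz2*, a lysozyme gene of macrophages and alveolar type 2 cells, was at 584, 687 and 1334 and 45.3, 56.0 and 74.9 FPKM (log2 fold change 3.82 ± 0.30, adjusted p = 5.15e-05). *Adgre1*, encoding the macrophage marker F4/80, was lower in abundance, at 3.06, 4.90 and 9.14 and 0.269, 0.102 and 0.303 FPKM (log2 fold change 2.37 ± 0.36, adjusted p = 0.00195). *Fcgr1* and *Siglec5* were listed at 0 in all ILC2_act libraries. Neutrophil genes gave 4 higher of 5 tested and B cell genes 2 of 5, and *Pax5*, the defining factor of B cells, was at 0 in all ILC2_act libraries. Mesothelial genes gave 4 higher of 5 tested, those of erythroid cells and platelets 4 of 6, of mast cells and basophils 2 of 3 and of NK cells and ILC1 2 of 4. Genes of monocytes and dendritic cells gave 3 higher and 1 lower of 9, those of eosinophils 2 higher and 1 lower of 3, and none of 4 ILC3 genes was called by limma (1 at an unadjusted p under 0.05). Beside these counts 9.24% of all genes tested were higher and 1.05% lower. Some of the small counts rest on 1 library. Without ILC2_10 library 2, 4 of 5 B cell genes were higher and 1 ILC3 gene was. The erythroid count fell to 2 without ILC2_act library 1 or 7. The NK cell count fell to 1, by the loss of *Gzmb*, without ILC2_10 library 2 or 8 or ILC2_act library 3 or 7. The sort gated out cells that stain for CD11b, CD11c or Gr-1 (myeloid cells), B220 (B cells), NK1.1 or NKp46 (NK cells) and Ter-119 (erythroid cells). Macrophages can transcribe *Il10* as well. Across the ILC2_10 libraries 2, 4 and 8 the macrophage marker *Adgre1* was highest in library 8 and *Il10* in library 4. With 3 libraries this order cannot place the source of *Il10*. The part of these cells in the result was not tested.

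**Figure D4:**
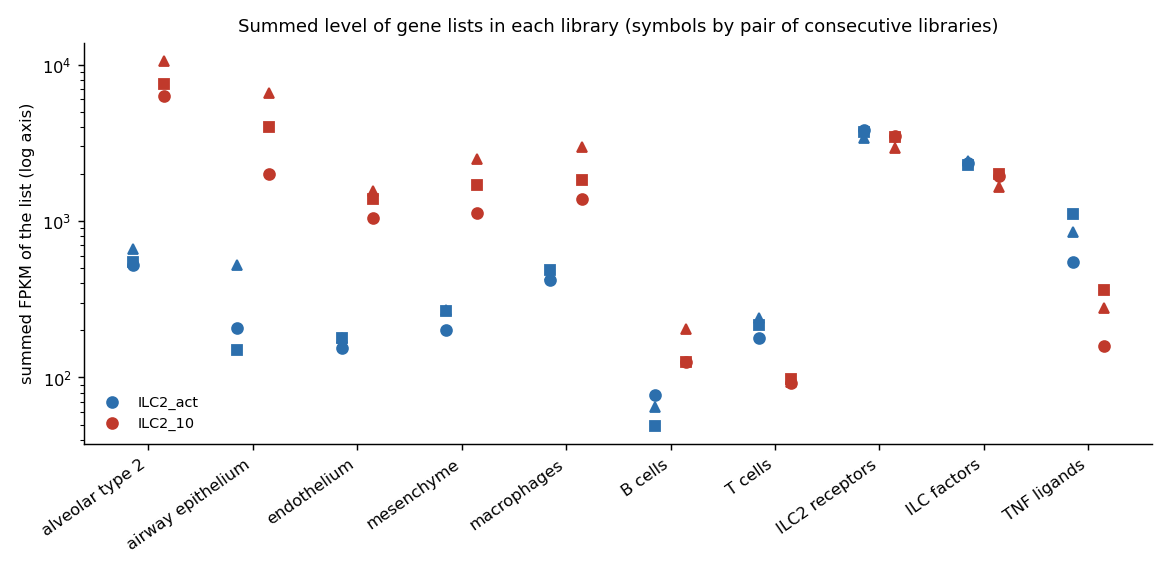
Summed FPKM (log axis) of 10 gene lists in each of the 6 libraries, with symbols by pair of consecutively numbered libraries. Sums of the epithelial, endothelial, mesenchymal and macrophage lists lay higher in every ILC2_10 library, and those of T cells and TNF ligands lower.

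Values from a separate table place the markers beside ILC2 of mice given vehicle or IL-33 without a reporter split. It was normalized apart and read on another sequencer, so no test was made between the tables, and the replicates are named nA, 1 and 2 for vehicle and Expand and WT for IL-33. *Il10* was at 0.711, 0.294 and 0.153 FPKM in vehicle and 128 and 103 FPKM after IL-33. *Socs3* was at 108, 142 and 214 and 24.6 and 20.4 FPKM. *Tnf* was at 86.3, 41.1 and 33.9 and 23.7 and 17.5 FPKM. *Il10* was thus near 0 without IL-33, whereas *Socs3* was highest in the vehicle libraries. *Foxf1* was at 53.7, 66.0 and 109 FPKM in vehicle and 3.64 and 2.45 FPKM after IL-33. *Sftpc* was at 3279, 7593 and 10744 and 106 and 67.9 FPKM. Whether RNA of these genes came from the same cells was not tested. *Ccl1* was at 1065, 1070.2 and 724 and 54.5 and 148 FPKM and *Il2* at 206, 114 and 47.4 and 3.78 and 17.3 FPKM. Of these 5 libraries the vehicle ones held the higher values of both genes, and of the split ILC2 the ILC2_10 libraries held the lower ones.

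The last comparison asked whether the change with the reporter was found in ILC2 alone or also seen in splenic Treg cells of identically treated reporter mice. All ILC2 came from lung and all Treg cells from spleen, so cell type and organ cannot be told apart in it. Of 12475 genes 1010 differed between the changes in these cell types (8.1%), 815 with the ILC2 change above the Treg change (6.53%) and 195 below it (1.56%). The count below fell to 118 without the negative Treg library 5 and to 124 without the positive Treg library 6, and rose to 286 with equal medians and to 330 with quantile normalization. The ILC2 and Treg groups share no libraries but share the estimate of the spread. *Il10* was at 0.572 and 1.06 FPKM in negative and 31.0 and 24.2 FPKM in positive Treg cells, and its fold change there was 4.74 (adjusted p = 4.05e-05). The floor of 1 FPKM bounds that change, and the ILC2 change was smaller by 1.35 on the log2 scale (adjusted p = 0.0345). *Id3* went in opposite directions. It was at 215 and 192 FPKM in negative and 50.2 and 49.2 FPKM in positive Treg cells, and the difference between the changes was 5.58 (adjusted p = 0.000176). *Socs3* was at 50.5 and 70.7 FPKM in negative and 35.7 and 48.7 FPKM in positive Treg cells, a difference of 3.01 from the ILC2 change (adjusted p = 0.000877). *Tnf* was at 6.64 and 7.72 and 5.21 and 2.92 FPKM, with a difference of -3.70 (adjusted p = 0.00846). *Foxf1* was listed at 0 in all 4 Treg libraries and *Il2* was below 0.2 FPKM in each, so the difference equals the ILC2 change for these genes. *Tcf7* was lower with the reporter in both cell types, at 78.4 and 88.4 FPKM in negative and 8.72 and 17.6 FPKM in positive Treg cells, and the changes did not differ by the threshold (difference 1.05, adjusted p = 0.118).

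**Figure D5:**
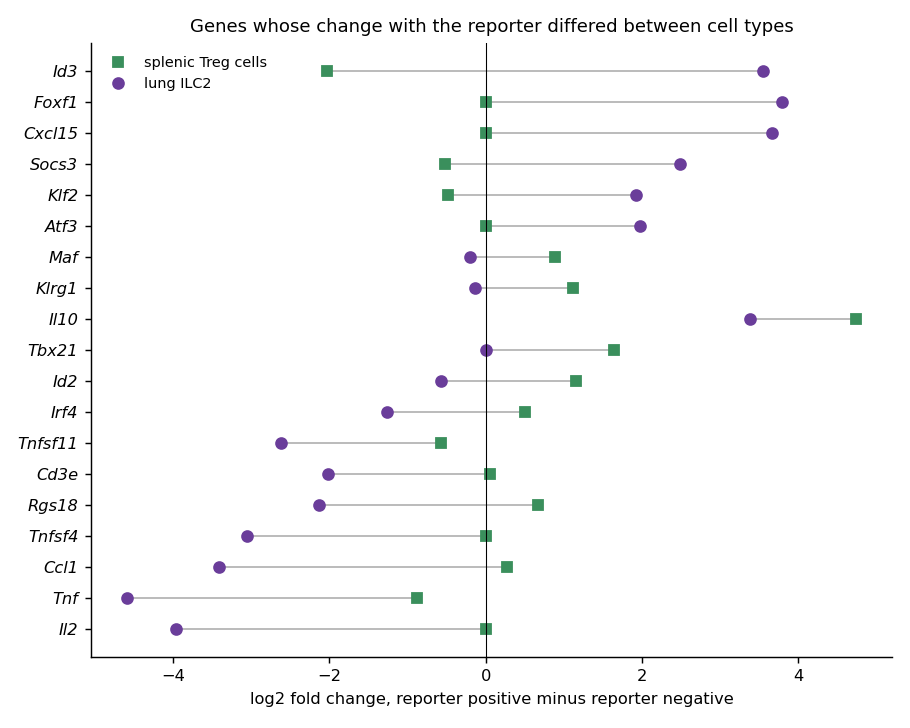
Log2 fold change with the IL-10 reporter in lung ILC2 (circles) and splenic Treg cells (squares) for 19 genes named in the study whose changes differed. *Id3* was higher with the reporter in ILC2 (3.55) and lower in Treg cells (-2.03), and *Il10* was higher in both (3.39 and 4.74).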

How the data were processed

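RNA-seq of 3 ILC2_10 and 3 ILC2_act libraries was used, with 4 of Treg cells for 1 contrast and 5 of unsplit ILC2 as description, grouped by their labels. cDNA was made by template switching and read on a NextSeq 500. The authors aligned reads to GRCm38 with TopHat2 2.1.0 and deposited FPKM per gene from Cufflinks 2.2.1. In the deposited table of the reporter libraries, entries other than numbers mark 312 of 23846 genes as having too little data. These were dropped, as were 3 genes that lack a value in a library, and zeros are written as 0.001. The table shows 27 symbols as dates. Of 589 list genes 581 were matched, 9 of them through an older symbol.

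FPKM were floored at 1, and genes above 1 FPKM in at least 3 of 6 libraries (2 of 10 for the Treg contrast) were tested on the log2 scale with limma 3.58.1 (trend) in R 4.3.3, two-sided, with Benjamini-Hochberg adjustment. A call needs an adjusted p below 0.05 and a change of 2-fold or more. The script was checked on simulated data. Other steps used Python 3.11.15 and pandas 2.3.3.

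Consecutively numbered libraries deviated together from their group means (r = 0.35, 0.30 and 0.19 across genes), more than others did (-0.26 to 0.02). Deviations of 3 libraries from their mean sum to 0, so positive values for some combinations push the others below 0. The low values of the others are thus no separate evidence for the pairs. Consecutive libraries were used as pairs in an alternative with a block. Whether each pair is 1 experiment is not given in the sources used here. Other alternatives were other pseudocounts, filters, normalizations, rescaling, the per-gene equal-variance test, no fold threshold, all 10 libraries, tag 22 only, and each library left out. Lists are described by counts and medians without a test. The members and lists were chosen with earlier results of these data known. Named were all genes of the study for these libraries and the marker genes, the 15 of largest change in each direction without overlap, and per list up to 4 called and 2 abundant uncalled members. Further genes were named after their values were seen.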

Additional observations from a re-analysis of the deposited data

Results flagged for a closer look

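Among 47 genes named in the study that could be tested, 19 changed differently with the reporter in lung ILC2 and in splenic Treg cells, by the contrast of both changes in limma (8.1% of all 12475 genes did). Many of them were named in the study for their change in these same ILC2 libraries. Their share therefore cannot be read as a result against that of all genes. Values are the ILC2 change minus the Treg change on the log2 scale, 6 above 0 and 13 below. The difference was 5.58 for *Id3* (adjusted p = 0.000176), 3.79 for *Foxf1* (adjusted p = 0.000106), 3.66 for *Cxcl15* (adjusted p = 0.000739) and 3.01 for *Socs3* (adjusted p = 0.000877). It was 2.40 for *Klf2* (adjusted p = 0.000319) and 1.97 for *Atf3* (adjusted p = 0.0107). Among genes below 0 it was -3.95 for *Il2* (adjusted p = 0.000448), -3.70 for *Tnf* (adjusted p = 0.00846), -3.68 for *Ccl1* (adjusted p = 0.000558) and -3.05 for *Tnfsf4* (adjusted p = 0.00019). It was -2.81 for *Rgs18* (adjusted p = 0.0111), -2.07 for *Cd3e* (adjusted p = 0.0244) and -2.05 for *Tnfsf11* (adjusted p = 0.000319). For *Irf4* it was -1.77 (adjusted p = 0.00725), for *Id2* -1.73 (adjusted p = 0.000311) and for *Tbx21* -1.64 (adjusted p = 0.00226). For *Il10* it was -1.35 (adjusted p = 0.0345), for *Klrg1* -1.24 (adjusted p = 0.0296) and for *Maf* -1.09 (adjusted p = 0.0149). *Id2*, *Klrg1* and *Tbx21* were higher in positive Treg cells (log2 fold changes 1.16, 1.11 and 1.64). In ILC2 *Id2* and *Klrg1* were not called, and *Tbx21* was too low to be tested, so its difference reflects the Treg change. *Atf3*, *Cxcl15*, *Foxf1*, *Il2* and *Tnfsf4* lay below the floor of 1 FPKM in all Treg libraries.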

How the results depend on the processing

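No named gene that was called changed direction under a setting run, whereas 21 of 201 named genes, none of them called and all within 0.31 of 0 (log2), changed sign under at least 1, as did the medians of 7 of 42 gene lists. Of the calls in ILC2_10 against ILC2_act, 1069 higher and 121 lower, the per-gene equal-variance test on floored FPKM made 18 and 4, with 3 named genes called against 120, a mean of at least 5 FPKM gave 460 and 72 among 8229 genes, and no filter gave 635 and 50 among 23531 (78 named genes). Quantile normalization gave 812 higher and 296 lower, which moved the share of calls that were higher from 89.8 to 73.3% and the median of all genes to -0.12, and without a fold threshold 502 were lower. The median of all genes, 0.03, moved to -0.11 with equal medians and to 0.13 after rescaling without genes of other cell types. Genes that differed from Treg cells numbered 438 at the 5 FPKM minimum and 621 with no filter, against 1010. Each library left out gave 924 to 1210 higher and 99 to 144 lower. The replicate block gave 1137 and 132, added 5 named calls, among them *Ccl5* and *Gzma*, and ended none. *Il10*, *Tnf*, *Ccl1*, *Il2* and *Socs3* kept their calls under every setting but the equal-variance test, where *Ccl1* alone did (adjusted p = 0.0128) and the others had adjusted p from 0.0642 to 0.169.

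FPKM hold no counts, so no counting interval can be given, and 3 pools per group limit the precision. Libraries 1, 2, 7 and 8 carry the tag 22 in their names and 3 and 4 the tag 26, of unstated meaning. Within tag 22 alone 761 genes were higher and 94 lower.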

Other observations

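Proliferation and metabolism did not separate the reporter groups by the thresholds used. None of 23 DNA replication genes (median log2 fold change 0.27), 24 mitosis genes (0.28) and 16 glycolysis genes (-0.01) was called by limma or by the equal-variance test, and 5, 3 and 3 of them, respectively, had an unadjusted p under 0.05. *Mki67*, which marks dividing cells, was at 57.5, 39.4 and 46.6 FPKM in ILC2_10 and 43.6, 32.3 and 34.8 FPKM in ILC2_act, with overlap (log2 fold change 0.37 ± 0.16, adjusted p = 0.184), and within each pair the positive library was the higher one. None of 7 MHC class II genes was called either (median 0.56, 4 with an unadjusted p under 0.05), and *Cd74* was at 896, 1178 and 1866 against 746, 898 and 925 FPKM (log2 fold change 0.56 ± 0.24, adjusted p = 0.185).

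Cytotoxic genes varied between pairs. *Gzma* was at 1223, 82.6 and 405 FPKM in ILC2_10 and at 258, 20.5 and 65.8 FPKM in ILC2_act. In each pair *Gzma* was the higher in ILC2_10, yet library 2 and library 4 differed more than the groups did, so the adjusted p was 0.205 without the block and 1.64e-06 with it (log2 fold change 2.29). *Prf1*, encoding perforin, was higher (log2 fold change 2.00 ± 0.33, adjusted p = 0.00345) but lost its call without a filter on low values (adjusted p = 0.0990), whereas the NK cell receptor gene *Ncr1* was listed at 0 in all ILC2_act libraries and stayed below 1 FPKM in ILC2_10. Of 17 interferon-stimulated genes tested 4 were higher (median 0.54). *Ifit3* was at 7.24, 5.31 and 7.85 and 0.671, 0.402 and 0.257 FPKM (log2 fold change 2.75 ± 0.21, adjusted p = 4.28e-05), while the more abundant *Isg15* overlapped at 24.4, 14.7 and 16.8 and 19.5, 9.13 and 10.5 FPKM (log2 fold change 0.56 ± 0.29, adjusted p = 0.267).

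Receptors of egress and homing split by direction, with 4 higher (21.1%) and 2 lower (10.5%) of 19 tested (median -0.14). Of all genes 9.24% were higher and 1.05% lower. *S1pr1*, which guides exit into lymph, was at 66.6, 62.1 and 67.9 FPKM in ILC2_10 and 36.3, 27.0 and 31.7 FPKM in ILC2_act (log2 fold change 1.06 ± 0.12, adjusted p = 0.000362). *Ccr9*, a receptor of gut homing, was at 96.4, 59.2 and 57.7 and 38.8, 23.4 and 22.9 FPKM (log2 fold change 1.33 ± 0.25, adjusted p = 0.00653). *Ccr8*, the receptor of CCL1, was lower like its ligand, at 359, 604 and 366 and 799, 1179 and 969 FPKM (log2 fold change -1.17 ± 0.22, adjusted p = 0.00673), and *Ccr2* was at 77.9, 102 and 75.6 and 185, 178 and 197 FPKM (log2 fold change -1.14 ± 0.12, adjusted p = 0.000294). None of these 4 overlapped. With quantile normalization *Ccr8* was just short of a fold of 2 (log2 fold change -0.98), and without a filter on low values it lost its call (adjusted p = 0.13). *Ccr9* lost its call within the libraries that share the tag 22 (adjusted p = 0.0698) and without a filter on low values (adjusted p = 0.133). Without ILC2_act library 3 the count of higher receptors was 2.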
